A study of Mus musculus with 13 samples.

Results

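The genes described here encode the nuclear subunits of the last steps of mitochondrial respiration: complex III (cytochrome bc1), cytochrome c, complex IV (cytochrome c oxidase) and ATP synthase. Members were the entries of the raw expression table whose symbol begins with Uqcr, Cox4i, Cox5, Cox6, Cox7, Cox8 or Atp5, together with Cycs and Cyc1, and 10 entries with -ps in the symbol, the mark of a pseudogene copy, were left out. The rule gave 47 of 55774 entries, or 46 symbols, since Atp5o is listed on separate rows. Complex III had 9 members, cytochrome c 1, complex IV 19 and ATP synthase 18. Of the 47, 41 passed the filter on low counts and were tested, and the other 6 (Cox4i2, Cox6a2, Cox7b2, Cox8b, Cox8c and the second Atp5o row) had 0 counts in all 13 libraries.

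The study measured RNA in CD4+ T cells after contact with macrophages from pancreatic islets, in mice of a strain prone to autoimmune diabetes. All T cells were naive CD4+ cells from the spleen of female NOD/ShiLtJ mice that carry the transgene pair (TcraBDC2.5,TcrbBDC2.5)1Doi, whose T cell receptor, BDC2.5, recognises an antigen of islet beta cells. The first group was T cells alone, without macrophages and labelled untreated (n = 4), and the labels do not say whether these cells were cultured. In the second group T cells were kept for 96 h with islet macrophages of NOD mice given buffer (n = 4, the control-macrophage co-culture). In the third they were kept for 96 h with islet macrophages of NOD mice given a single low dose of streptozotocin, a beta-cell toxin (n = 5, the STZ-macrophage co-culture). The donors received the injection at 4 weeks of age, and macrophages were enriched with magnetic beads from islets taken 10 days later, at 5.5 weeks. After culture, live cells positive for CD45, Thy1.2 and CD4 were collected by sorting, a gate for T cells. The labels place all 4 libraries of cells alone in batch day 1, 3 control-macrophage libraries in day 1 and 1 in day 2, and 2 STZ-macrophage libraries in day 1 and 3 in day 2.

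Complex III passes electrons from ubiquinol to cytochrome c, and complex IV passes them from cytochrome c to oxygen. Both pump protons across the inner mitochondrial membrane, and ATP synthase lets the protons flow back to make ATP. Each complex joins subunits from nuclear genes with a few made inside the mitochondrion, and naive T cells are known to enlarge this machinery when they are activated and leave rest.

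Total counts ran from 17312119 to 61267763 a library, and 3 counts in 1 library corresponded to 0.0493 to 0.133 CPM (counts scaled to a common library size by TMM). Libraries carry no molecular identifiers, so such floors cover counting error only. The labels call the replicates biological. Summed CPM of 9 T cell markers was 7766 to 15295 in cells alone, 12419.8 to 23042 with control macrophages and 9339 to 12542 with STZ macrophages. That of 5 CD8 T and NK cell markers was 15.7 to 39.6, 29.8 to 125 and 38.2 to 88 CPM. Of the 4 tested, 2 had a positive log2 fold change in each comparison with cells alone. Klrk1 rose (log2 fold changes 4.29 and 4.99), and Cd8a was called higher with control macrophages (4.68) but not with STZ macrophages (2.91). Klrb1c had negative values (-2.86 and -4.77) and was not called. Of the 4 markers, 1 other was called lower with STZ macrophages. Summed CPM of 20 macrophage markers was 3.07 to 7 in cells alone, 6.61 to 58.2 with control macrophages and 26.7 to 121 with STZ macrophages. In every library of a group, 5 of these markers were at 0 in cells alone (Cd14, Lyz1, Itgax, Marco and Vsig4), 2 with control macrophages (Mertk and Vsig4) and 1 with STZ macrophages (Vsig4). Summed CPM of 13 islet endocrine markers stayed at or below 0.79 in cells alone and 1.97 with control macrophages, and reached 169.9 and 147 in STZ-macrophage replicates 2 and 4, while 8 B cell markers summed to 6.13 to 24.3 CPM in cells alone and at most 2.14 in co-culture. In bulk RNA, fewer cells of a type and less RNA per cell cannot be told apart.

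The genes are scattered over the nuclear genome. In GENCODE vM21 (GRCm38) the whole genes lie, for the members the results turn on most, Cycs at chr6:50562563-50566538, Uqcr10 at chr11:4701973-4704342, Cyc1 at chr15:76343523-76346260, Cox4i1 at chr8:120668222-120674207, Cox7a2l at chr17:83501918-83517330, Atp5j at chr16:84827866-84835625 and Atp5b at chr10:128083273-128090391. Exons of Cox4i1, Cox5a, Cox6c, Uqcrb, Uqcrc2, Atp5j and Atp5pb overlap a gene on the other strand in part (Emc8, Gm26631, Vps13b, Gm10767, Pdzd9, Gabpa and Wdr77 in that order). So do those of Atp5o (Gm15976 and D430001F17Rik), Atp5a1 (Haus1), Atp5d (Cbarp), Atp5l (Gm30934), Atp5md (Taf5) and the untested Cox6a2 (Itgad). Atp5pb also overlaps Gm42890. The library kit does not mark strand, so some reads of these members may be of those genes.

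Levels differed widely between members of 1 complex. Compared per kilobase of transcript in the control-macrophage co-culture, Uqcr10, a small accessory subunit, was the highest of complex III at 558 ± 85.8 CPM per kb (SD, n = 4). Below it came Uqcrh (the hinge protein that helps dock cytochrome c) at 434 ± 175, Uqcrb at 298 ± 132, Uqcr11 at 227 ± 26 and Uqcrc2 at 226 ± 92.8 CPM per kb, neighbours whose ranges overlapped. The catalytic subunits Uqcrfs1 (the Rieske iron-sulfur protein) and Cyc1 (cytochrome c1) were the lowest, at 5.02 ± 1.14 and 4.6 ± 1.06 CPM per kb, and did not overlap with any of the other 7. In complex IV, Cox4i1, Cox7a2, Cox6b1 and Cox6c lay between 475 ± 110.4 and 652 ± 80.1 CPM per kb, with overlapping ranges, while Cox5a, the partner of Cox4i1 in early assembly, was at 18.3 ± 4.35. In ATP synthase, Atp5j led at 536 ± 187 CPM per kb, next to Atp5a1, Atp5o, Atp5e, Atp5c1 and Atp5j2 at 389 to 429, within each other's spread. Atp5b, which forms the catalytic head with Atp5a1 in equal numbers, was at 98.7 ± 80.3 CPM per kb against 429 ± 188 for Atp5a1.

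Co-culture with control macrophages was compared with cells alone, which asks how the T cells differ after contact with unperturbed islet macrophages. Of 41 tested members, 27 rose and 0 fell (edgeR's quasi-likelihood test, adjusted p below 0.05 over all 15781 genes), where 23.1% of all genes were called higher, 22.0% lower and 45.0% in either direction. The members' median log2 fold change was 1.19, against -0.13 over all genes. By complex, 5 of 9 members of complex III rose (median log2 fold change 0.92), 8 of 14 of complex IV (1.14), 13 of 17 of ATP synthase (1.30) and Cycs. No member was lower at an unadjusted p below 0.05, and DESeq2 called 29 higher and 0 lower. Summed CPM of complex III was 663 ± 86.5 (n = 4) in cells alone and 1422 ± 264 (n = 4) in co-culture, that of complex IV 963 ± 121 and 2301 ± 341, and that of ATP synthase 1843 ± 378 and 4292 ± 357. Under library totals in place of TMM the median of all genes moved to -0.45 and that of the members to 0.87, and the distance between them was 1.32 under both scalings.

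**Figure D1:**
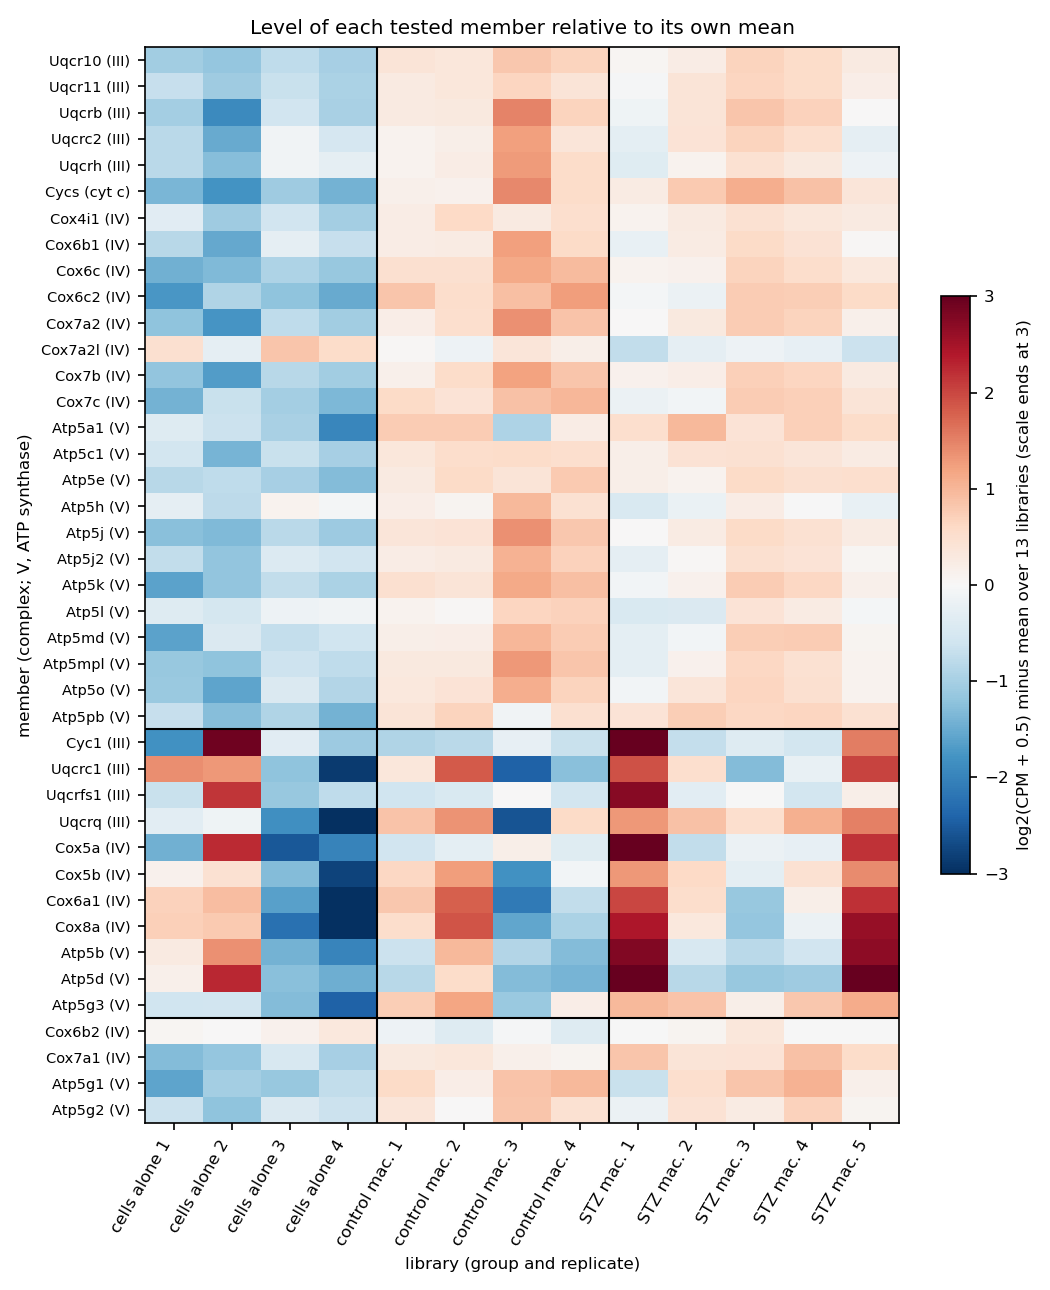
Level of each of the 41 tested members (rows, complex in brackets, V for ATP synthase) in each library (columns), as log2(CPM + 0.5) minus the member's mean over 13 libraries, with the colour scale ending at 3. Of the upper 26 rows 23 were called higher with control and 18 with STZ macrophages, and Cox7a2l was called lower with STZ macrophages; the 11 rows of the middle block follow single libraries, above all STZ-macrophage replicates 1 and 5; the lowest 4 rows are members of low level.

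Cytochrome c itself was among the clearest. Cycs, which carries electrons between complexes III and IV and triggers apoptosis when released, was at 60.2, 44.3, 73.9 and 58.2 CPM in cells alone and at 172, 169.7, 421 and 228 CPM with control macrophages. The groups did not overlap, and control-macrophage replicate 3, the 1 library of batch day 2, was the highest. Cycs rose 3.41-fold (log2 fold change 1.77, SE 0.20, edgeR adjusted p = 2e-05).

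In complex III the accessory subunits and 1 core protein rose together. Uqcr10 was at 79.3, 72.7, 95.9 and 81.5 CPM in cells alone and at 216, 207, 286 and 261 CPM in co-culture, with no overlap and a log2 fold change of 1.47. Uqcrb, an accessory subunit beside the ubiquinone site, was at 45.6, 24.4, 62.5 and 47.6 CPM and then 112, 114, 262 and 149.6 CPM. It rose by 1.53 on the log2 scale (SE 0.26, edgeR adjusted p = 0.00044), and its groups did not overlap. The other risers were Uqcr11 (1.16), Uqcrh (0.92) and Uqcrc2 (0.89), a core protein that helps hold the complex together. The 4 members that did not pass were the catalytic Cyc1 (log2 fold change -1.18, SE 1.17, adjusted p = 0.433) and Uqcrfs1 (-0.57, SE 0.93, adjusted p = 0.639), the core protein Uqcrc1 (0.17) and the accessory subunit Uqcrq (1.58, SE 0.63, edgeR adjusted p = 0.059). Their standard errors were 0.63 to 1.17, against 0.16 to 0.26 for the risers. Cyc1 and Uqcrfs1 changed sign without replicate 2 of cells alone, to 1.04 and 0.98.

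In complex IV the subunits named Cox6c, Cox7a2, Cox7b and Cox7c, small membrane subunits around the catalytic core, rose the most among the common forms. Cox6c was at 74.9, 81.3, 107 and 92 CPM in cells alone and at 284, 281, 444 and 394 CPM with control macrophages, with no overlap. It rose by 1.88 on the log2 scale (SE 0.19, adjusted p = 8.9e-06 by edgeR), the smallest adjusted p of all members, and those of Cox7a2, Cox7b and Cox7c were 1.75, 1.74 and 1.76. Cox4i1, the common form of the subunit that starts nuclear subunit assembly, was at 296, 181, 255 and 186 CPM and then 439.8, 568, 456 and 533 CPM. It rose 2.16-fold (log2 fold change 1.11, SE 0.19, edgeR adjusted p = 0.00044). Cox6b1, which faces cytochrome c, rose by 1.18 on the log2 scale. Cox5a, the partner of Cox4i1, was at 4.85, 67.8, 1.97 and 3.13 CPM in cells alone and at 9.3, 11.4, 15.8 and 10.7 CPM in co-culture. Replicate 2 of cells alone stood above all co-cultures with control macrophages, the other 3 below them, and the log2 fold change was 0.14 (SE 1.27, adjusted p = 0.935); without that replicate Cox5a was called higher by edgeR, at 2.71.

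Cox7a2l had a negative fold change, as did Cox6b2 in the same complex (-0.59), and neither was called. Cox7a2l encodes a relative of subunit 7A that sits between complexes III and IV in respiratory supercomplexes. It was at 171, 102, 219 and 181 CPM in cells alone and at 125, 109.7, 159 and 139 CPM with control macrophages. The groups overlapped through replicate 2 of cells alone, and the log2 fold change was -0.45 (SE 0.21, edgeR adjusted p = 0.0976). Without that replicate edgeR called it lower, at -0.62, and with library totals in place of TMM likewise, at -0.75.

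Cox6c2 showed the largest log2 fold change among members at 3 log2 CPM or more, 2.26 (SE 0.32, edgeR adjusted p = 0.00012), from 6.89 ± 1.92 CPM (n = 4) to 33.7 ± 7.17 CPM (n = 4). The annotation (GENCODE vM21, GRCm38) has it as a processed pseudogene at chr12:56373593-56373823 on the minus strand, a copy of Cox6c, which lies at chr15:35925886-35938246 on the minus strand. Over the 228 coding bases of Cox6c the copies had 7 mismatches and 96.9% identity. The first 90 bases are shown because 150-base reads from the parent can fit the copy, with the 6 differing bases of this stretch in capitals. The sources used here do not say how reads were divided between the copies, so the value of Cox6c2 is uncertain. It took 7.24% of the summed CPM of the pair in cells alone, 8.87% with control macrophages and 8.25% with STZ macrophages.
Cox6c: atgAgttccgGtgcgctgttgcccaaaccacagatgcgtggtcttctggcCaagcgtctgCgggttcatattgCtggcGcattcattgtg
Cox6c2: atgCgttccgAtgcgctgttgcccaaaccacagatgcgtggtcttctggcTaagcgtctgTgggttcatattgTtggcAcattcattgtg

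Pseudogene copies left out by the rule held part of the signal of other members too. Copies made up 27.7% of the summed CPM of Cox5b and its copy in cells alone, 33.5% with control and 35% with STZ macrophages. For Cox7c the shares were 34.3%, 30.0% and 34.2%, and for Atp5pb 11.4%, 11.8% and 12.1%. These 3 members are therefore uncertain in level. The shares of Cox7c and Atp5pb overlapped between all groups, and that of Cox5b overlapped between cells alone and control macrophages but not between cells alone and STZ macrophages.

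In ATP synthase 3 of 4 tested subunits of the peripheral stalk rose, 4 of 5 accessory membrane subunits, 2 of 3 of the central stalk, 1 of 2 of the catalytic head and all 3 genes of the c ring. Atp5j, the F6 subunit of the peripheral stalk that holds the head still, was at 105, 100.2, 142 and 118 CPM in cells alone and at 321, 330.1, 645 and 438 CPM with control macrophages. It rose 3.31-fold without overlap (log2 fold change 1.73, SE 0.19, edgeR adjusted p = 1.6e-05). Its stalk partners Atp5o and Atp5pb rose by 1.44 and 1.45 on the log2 scale. Atp5k, subunit e, which helps complexes pair into dimers, was at 21.1, 28.1, 38.9 and 33.3 CPM and then 90.6, 84.4, 144 and 121 CPM. It rose by 1.71 (SE 0.23, edgeR adjusted p = 8.5e-05), as did the membrane subunits Atp5mpl (1.47), Atp5md (1.19) and Atp5j2 (1.15), and the central stalk subunits Atp5c1 (1.30) and Atp5e.

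Of the catalytic head, Atp5a1 was called and Atp5b was not, and the difference between them was not tested. Atp5a1, the alpha subunit, was at 634, 531, 425 and 212 CPM in cells alone and at 1415, 1412, 436 and 973 CPM with control macrophages. Control-macrophage replicate 3 lay within the range of cells alone and the other 3 above it, and the log2 fold change of 1.28 passed the test, though not with library totals in place of TMM. Atp5b, the catalytic beta subunit, was at 257, 553, 79.3 and 53.7 CPM and then 136, 418, 116 and 86.6 CPM, with full overlap and a log2 fold change of 0.37 (SE 0.79, edgeR adjusted p = 0.724) that turned to -0.03 under library totals. Atp5d, the delta subunit of the central stalk, was at 27.3, 118, 9.84 and 8.55 CPM and then 13.4, 35.7, 9.6 and 8.94 CPM (log2 fold change -0.37, SE 0.95, adjusted p = 0.77). Atp5h (0.53) and Atp5l (0.59), subunits d and g, missed the threshold of edgeR at adjusted p of 0.0559 and 0.0562. With the replicate number as a block both were called higher, at 0.59 and 0.63.

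In the authors' second table, whose values they had adjusted beforehand, limma called 24 members higher and 7 lower, and Atp5a1, Cox4i1, Atp5pb and Atp5g3 lost their call. The 7 (Atp5b, Atp5d, Cox5b, Cox6a1, Cox8a, Uqcrc1 and Uqcrq) all belong to the group that varied most between libraries, described further on.

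**Figure D2:**
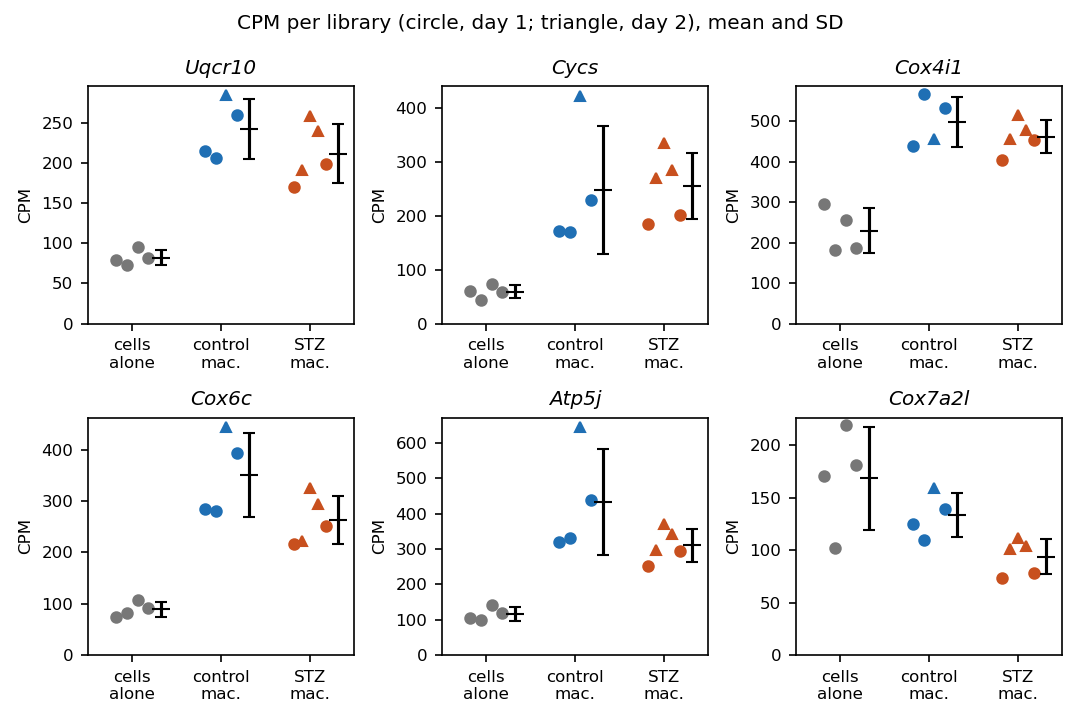
CPM of Uqcr10, Cycs, Cox4i1, Cox6c, Atp5j and Cox7a2l in each library (circles, batch day 1; triangles, day 2), with the mean and SD of each group (cells alone n = 4, control macrophages n = 4, STZ macrophages n = 5). All co-culture points of Uqcr10, Cycs, Cox4i1, Cox6c and Atp5j lie above all points of cells alone, and the axis of every panel starts at 0. In the panel of Cox7a2l the groups overlap, with cells alone at 102 to 219 CPM and STZ-macrophage libraries at 73.8 to 111 CPM.

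Co-culture with STZ macrophages was compared with the same cells alone. Of 41 members, 25 rose and 1 fell (edgeR, adjusted p below 0.05), where 20.8% of all genes were called higher, 22.3% lower and 43.1% in either direction. The median log2 fold change of the members was 1.15, against -0.05 over all genes. In complex III 4 of 9 rose, in complex IV 9 of 14 rose and 1 fell, in ATP synthase 11 of 17 rose, and Cycs rose by 1.58 (SE 0.21, adjusted p = 7e-05). DESeq2 called 29 higher and 1 lower. Both comparisons use the same 4 libraries of cells alone, so the values below stand side by side and are no independent repeat.

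Cycs was at 184, 269.9, 334, 284 and 201 CPM with STZ macrophages, each above all 4 libraries of cells alone. Cox6c was at 217, 222, 325, 294 and 252 CPM, again without overlap, with a log2 fold change of 1.35. Cox4i1 was at 404, 457, 517, 478 and 453 CPM and rose by 0.98 (SE 0.21, edgeR adjusted p = 0.00211). The call of Cox4i1 was lost with the GC correction (0.40, adjusted p = 0.347), the replicate block (1.01, adjusted p = 0.0621), both together (0.64, adjusted p = 0.308) and in the authors' table with limma (0.51, adjusted p = 0.118). In these 3 members STZ-macrophage replicate 1 was the lowest of its group and replicate 3 the highest. Atp5j was at 251, 296, 371, 342 and 294 CPM (log2 fold change 1.11) and Atp5pb, subunit b of the peripheral stalk, at 439.5 to 551 CPM (1.68), both without overlap with cells alone.

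The member that fell was Cox7a2l, the supercomplex factor. Its CPM with STZ macrophages was 73.8, 101, 111, 104 and 78.2, against 102 to 219 in cells alone. The overlap came from replicate 2 of cells alone, and the log2 fold change was -1.12 (SE 0.23, edgeR adjusted p = 0.00203). With day 1 libraries alone the value was -0.92 and was not called, and without STZ-macrophage replicates 1 and 5 it was -1.01 and was not called. With the replicate number as a block it was -0.96 and was not called (edgeR adjusted p = 0.0627).

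Members that rose here with a wide error were Uqcrq (log2 fold change 2.97, SE 0.78, edgeR adjusted p = 0.00835), Cox8a (2.60, SE 0.90, adjusted p = 0.0329), Cox5b (2.13) and Atp5b (2.07, SE 0.77, adjusted p = 0.0448). Atp5b was at 1478, 152, 122, 144 and 1382 CPM, so 2 libraries carried its mean and the other 3 lay within the range of cells alone. Its call was lost on leaving out any 1 of 9 libraries. Cox8a, the common form of the smallest subunit of complex IV, was at 213, 48.6, 17.2, 34.6 and 241 CPM, and lost its call without replicate 1 or without replicate 5. Cox6a1, which regulates the oxidase, had a log2 fold change of 2.37 (SE 0.92) and an edgeR adjusted p of 0.053. Uqcrc1 (1.73, SE 0.96, edgeR adjusted p = 0.167) and Cyc1 (0.63, SE 1.00, adjusted p = 0.641) were not called either.

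Some members that rose with control macrophages missed the threshold here. They were Uqcrc2 (log2 fold change 0.31, adjusted p = 0.357), Uqcrh (0.19, adjusted p = 0.582), Cox6b1 (0.59, adjusted p = 0.0783) and Atp5g2 (0.72, adjusted p = 0.0865) by edgeR, with Atp5j2 (0.56) and Atp5md (0.70). All of these but Uqcrh were called higher without the day term, at 0.87 (Atp5j2) to 1.09 (Atp5md). The same members were called when only the libraries of these groups were fitted, at 0.83 (Atp5j2) to 1.05 (Atp5md). Atp5b, Cox8a and Cox5b lost their calls under both settings. The missed calls thus depend on the fit, and the part of the day adjustment in them was not tested. Atp5h and Atp5l, in the fit with the day term, stood at -0.21 and 0.05. Without STZ-macrophage replicates 1 and 5 a setting chosen after seeing the data, 8 of the 41 members were called higher, and Cycs, Cox6c and Atp5j were among those that lost their call. The 3 libraries left are all of batch day 2, which has 1 control-macrophage library and no cells alone.

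**Figure D3:**
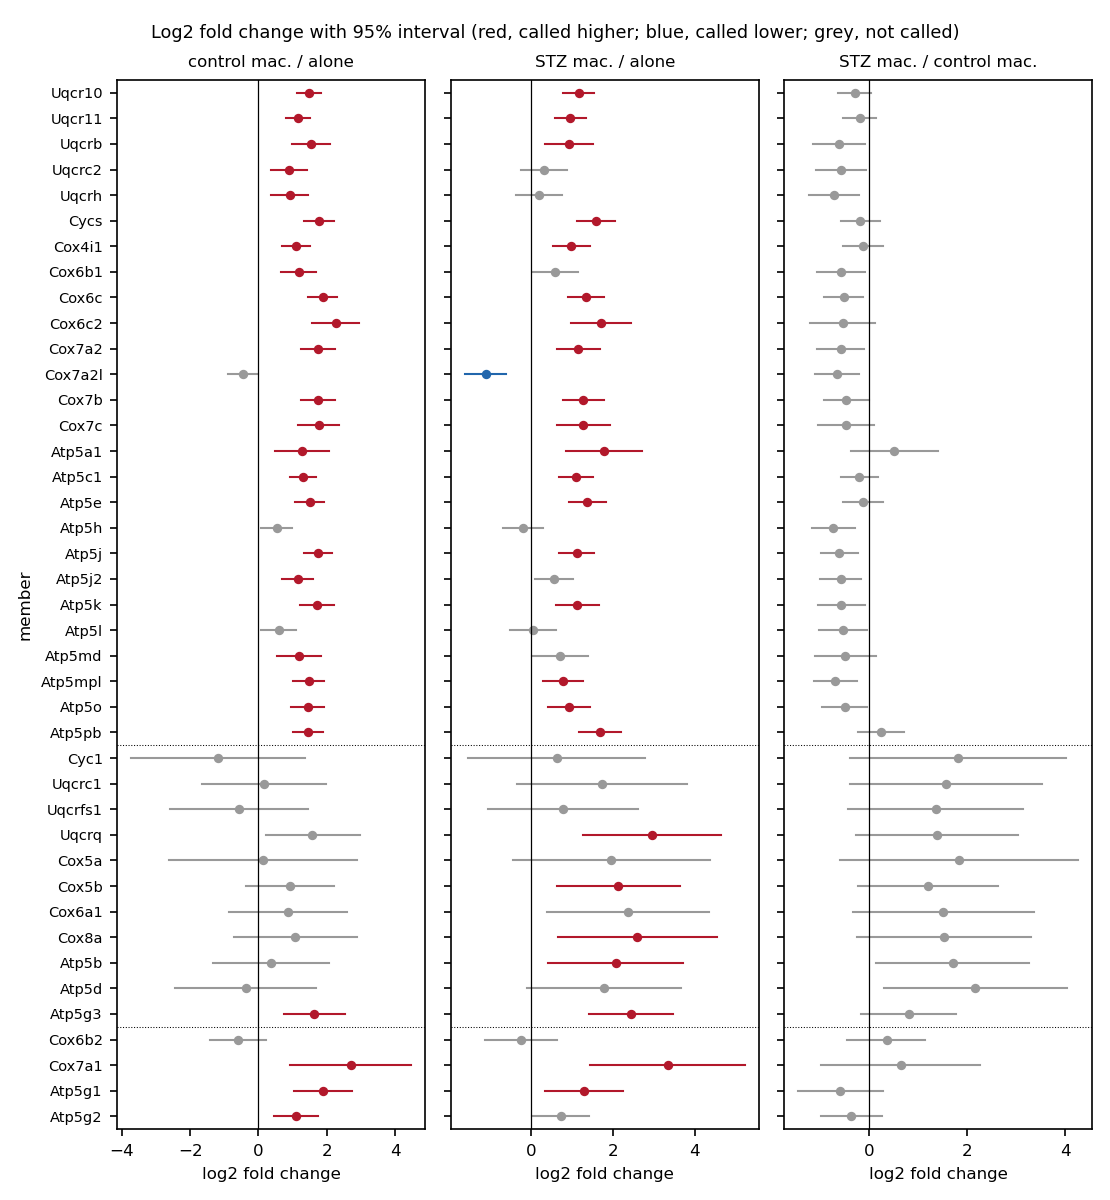
Log2 fold change of each tested member (rows) in the 3 comparisons (panels), with the 95% interval; red marks a call as higher, blue as lower and grey no call, and dotted lines separate the 26 members of even level, the 11 that varied and the 4 of low level. Intervals are narrower in the upper block than in the middle one, which the split by spread favours. Cox7a2l, at -0.45 and -1.12 against cells alone, is on the lower side in that block, and the right panel holds no call.

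The direct comparison of the co-cultures asks what prior STZ exposure of the macrophage donors adds. By edgeR 0 of 41 members passed, where 0.152% of all genes were called higher, 0.171% lower and 0.323% in either direction, and DESeq2 called 0 too. At an unadjusted p below 0.05 there were 17 members, 15 lower and 2 higher with STZ macrophages. The median log2 fold change was -0.30, against -0.13 over all genes. The smallest adjusted p was 0.134, for Atp5h, at 115, 106, 198 and 139.7 CPM with control and at 72.8, 87.9, 118, 99.5 and 86.1 CPM with STZ macrophages (log2 fold change -0.74, SE 0.20, 95% interval -1.18 to -0.30). The groups overlapped through STZ-macrophage replicate 3.

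The other 7 with the smallest unadjusted p were all lower with STZ macrophages and none passed the correction. Their log2 fold changes were -0.62 for Atp5j, -0.70 for Atp5mpl, -0.67 for Cox7a2l, -0.73 for Uqcrh, -0.59 for Atp5j2, -0.53 for Cox6c and -0.59 for Cox7a2, with standard errors of 0.18 to 0.24 and edgeR adjusted p of 0.142 to 0.168. Cycs was at -0.19 (95% interval -0.59 to 0.22, edgeR adjusted p = 0.538), and Cox4i1 at -0.13 (-0.54 to 0.28), so differences of these sizes in either direction are within the error. The 2 members higher at an unadjusted p below 0.05 were Atp5d (2.16, 95% interval 0.29 to 4.03) and Atp5b (1.70, 0.14 to 3.26). When only the libraries of these 2 groups were fitted, edgeR called 4 members lower (Atp5h, Cox7a2l, Uqcrc2 and Uqcrh, adjusted p 0.0274 to 0.0294) and Atp5d higher (adjusted p = 0.0412).

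Markers of cell types were compared between the co-cultures as well. All 9 T cell markers had a negative log2 fold change with STZ against control macrophages (median -0.66, 0 called), and all 13 tested macrophage markers a positive one (median 1.55, 0 called), with overlapping sums in the libraries. Islet markers were high in STZ-macrophage replicates 2 and 4, while replicates 1 and 5, at 0.98 and 0.693 CPM, were within the range of control macrophages. The part of these markers in the members' differences was not tested. In the 3 libraries with the lowest summed macrophage markers of that group (26.7 to 31.4 CPM) Atp5h was at 72.8 to 87.9 CPM, and in the other 2 (111 and 121 CPM) at 118 and 99.5 CPM.

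Within batch day 1 (3 control-macrophage and 2 STZ-macrophage libraries) edgeR called 0 of 41 members, where 0.215% of all genes were called, and within day 2 (1 and 3 libraries) 0 members, where 0% of all genes were. At an unadjusted p below 0.05 there were 7 members in day 1 and 12 in day 2. Cox7a2l was at -0.71 (SE 0.27) in day 1 and -0.59 (SE 0.33) in day 2, and Atp5h at -0.60 (SE 0.27) and -0.96 (SE 0.31). The difference of the STZ effect between the days was called for 0 members, where 0.00634% of all genes were called. It had an unadjusted p below 0.05 for 5 members, Atp5a1 (1.73), Uqcrq (3.01), Cox5a (-4.23), Atp5pb (0.84) and Atp5d (-3.22, day 2 minus day 1), with a smallest edgeR adjusted p of 0.371. The day 2 value rests on 1 control-macrophage library, assumed to vary like the others.

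Among members at 3 log2 CPM or more, 11 varied far more between libraries than the other 26. They were Cyc1, Uqcrc1, Uqcrfs1 and Uqcrq of complex III, Cox5a, Cox5b, Cox6a1 and Cox8a of complex IV, and Atp5b, Atp5d and Atp5g3 of ATP synthase. They were set apart by an SD of log2(CPM + 0.5) of at least 0.6 over the 9 co-cultures. Just inside was Atp5g3 at 0.71, just outside Atp5a1 at 0.56. By the same measure 23.9% of 8347 genes of that level varied and 29.7% of the 37 members did. Since the measure chose them, what follows on their spread is a description.

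The same libraries were high in all of them. STZ-macrophage replicates 1 and 5 were among the highest 3 of 13 libraries for 11 of 11, control-macrophage replicate 2 for 6 and replicate 2 of cells alone for 5. Replicate 4 of cells alone was among the lowest 2 for 11 of 11. Summed CPM of the 11 was 907, 1503, 277 and 142 in cells alone, 957, 1855, 310.0 and 582 with control macrophages, and 3499, 986, 598, 902 and 3302 with STZ macrophages. That of the 26 even members was 3034, 2277, 3355 and 2592, then 6429, 6875, 8546 and 7432, then 5278, 6707, 7393, 7188 and 5864. The first sum did not separate the groups, and the second separated both co-cultures from cells alone. A split by spread between co-cultures favours such a contrast, so it is a description only.

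In Cyc1, Uqcrfs1, Cox5a and Atp5d a few libraries stood far above the rest. Cyc1 was at 2.82, 86.8, 8.66 and 4.98 CPM in cells alone, at 5.75, 6.1, 9.32 and 6.79 CPM with control macrophages, and at 99.7, 6.61, 8.37, 7.4 and 33.2 CPM with STZ macrophages. Cox5a with STZ macrophages was at 201, 8.15, 12.3, 11.7 and 65 CPM, Uqcrfs1 at 62.5, 7.14, 8.87, 5.95 and 10.3 CPM, and Atp5d at 229.9, 13.4, 10.8, 11.3 and 215 CPM. In each of them replicate 1 was the highest and replicate 5 the next. Cox8a, Cox6a1, Cox5b, Uqcrc1 and Uqcrq were lowest among co-cultures in control-macrophage replicate 3, with 13, 14.6, 8.55, 14.6 and 13.9 CPM.

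Partners in the same complex kept no fixed ratio. Per kilobase, Uqcrc1 stood at 0.059 to 2.22 times its core partner Uqcrc2 in cells alone, at 0.0243 to 1.01 times with control and at 0.0796 to 1.54 times with STZ macrophages. Atp5b stood at 0.122 to 1.62 times Atp5a1 with STZ macrophages, the 2 high values being those of replicates 1 and 5. Atp5c1 over Atp5a1, with neither gene in the varying group, stood at 0.574 to 0.871 in the same 5 libraries, 0.619 to 2.33 with control macrophages and 0.497 to 1.64 in cells alone.

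**Figure D4:**
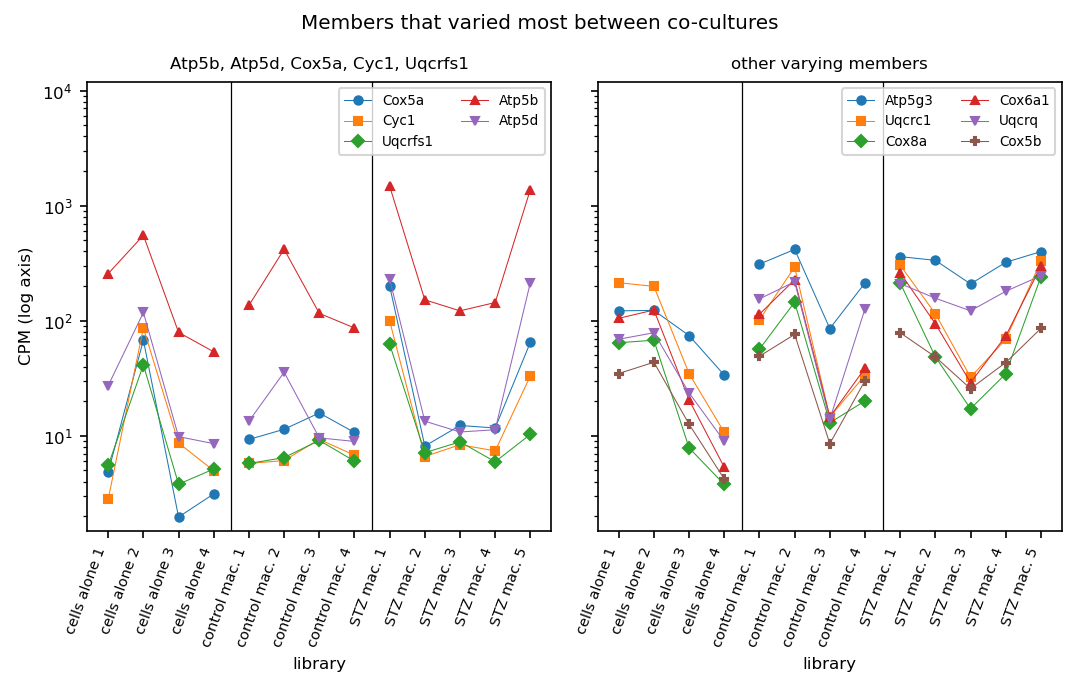
CPM (log axis) of the 11 members that varied most between co-cultures, in each of the 13 libraries, with Atp5b, Atp5d, Cox5a, Cyc1 and Uqcrfs1 in the left panel and the other 6 in the right; lines only join the points of 1 gene. STZ-macrophage replicates 1 and 5 stand above replicates 2, 3 and 4 for each gene, and replicate 4 of cells alone is at or near the bottom.

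Other measures of the libraries moved with these members. The first principal component of the 4 libraries of cells alone, projected onto all 13 (6677 genes, 67.6% of the variance among the 4), gave scores of 23.7, 53.3, -28.6 and -48.4 to cells alone, -10.8, 7.6, -77.3 and -36.2 to control-macrophage libraries, and 40.9, -13.9, -34.2, -18.8 and 31.1 to STZ-macrophage libraries. The highest scores were those of replicate 2 of cells alone and STZ-macrophage replicates 1 and 5, in which the 11 were high. Replicate 1 of cells alone, next at 23.7, was among the highest 3 libraries for 0 of the 11. Members were not left out of the genes that gave the component. With that score as a term in the fit, edgeR called 33 members higher and 1 lower with control macrophages against cells alone, among them Uqcrc1, Uqcrq, Cox5b, Cox6a1 and Cox8a of the varying group, and 30 higher with STZ macrophages. What sets the score was not tested. The macrophage markers in STZ-macrophage replicates 1 and 5 summed to 26.7 and 30.4 CPM, the lowest of that group.

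GC content, which the rule did not use, was high in most of the 11, with a coding GC of at least 55% in 7 of 11 against 2 of 25 even members. The GC content of their coding sequence had a median of 57.7% (49.4% to 65.2%), against 50.3% (41.4% to 60.7%) in 25 of the 26 even members, those with an annotated coding sequence, and 51.2% over 7566 tested genes of that level. Over the whole transcript the medians were 51.6% and 50%. Across these 36 members the SD over co-cultures and coding GC had a Pearson r of 0.62 and a Spearman rho of 0.32, as a description across genes that share all libraries. Over 7566 genes of that level they were 0.26 and 0.13. Within each library, coding GC was also correlated across these genes with the deviation of each gene from its own median over the 13 libraries. This rho lay between -0.46, in control-macrophage replicate 3, and 0.29, in STZ-macrophage replicate 5. The part of coding GC in the spread was not tested. The GC correction of the counts used the GC content of the whole transcript, not of the coding sequence. After it 27 members were called higher and 1 lower with control macrophages, and 23 higher and 1 lower with STZ macrophages. In the latter Uqcr11, Atp5mpl, Atp5j, Atp5o and Cox4i1 lost their call.

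**Figure D5:**
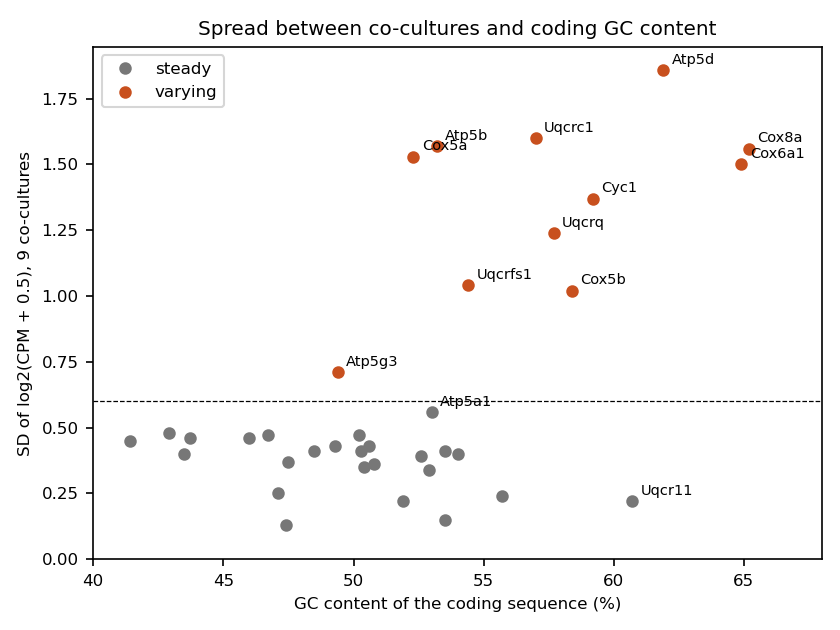
SD of log2(CPM + 0.5) over the 9 co-cultures (vertical axis) against the GC content of the coding sequence (horizontal axis, %) for 36 members; orange marks the varying members, grey the even ones, and the dashed line is at 0.6. Cox8a at 65.2% and Atp5d at 61.9% are at the upper right, Uqcr11 is an even member at 60.7%, and Atp5g3 varied at 49.4%.

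The coding starts of 2 members of each kind show the contrast in base composition. They were picked as examples after the values were seen, each is the first 120 coding bases of the annotated transcript (GENCODE vM21, GRCm38), and capitals mark runs of 6 or more G or C. Cox8a (chromosome 19, minus strand) has 3 such runs in this stretch and Atp5d (chromosome 10, plus strand) has 6 and a GC content of 71.7%, while Cox7b (chromosome X, plus strand) has 0 and Uqcrb (chromosome 13, minus strand) has 1 and a GC content of 44.2%.
Cox8a: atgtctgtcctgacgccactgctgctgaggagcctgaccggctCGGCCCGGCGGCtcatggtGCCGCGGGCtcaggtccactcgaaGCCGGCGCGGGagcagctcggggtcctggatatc
Atp5d: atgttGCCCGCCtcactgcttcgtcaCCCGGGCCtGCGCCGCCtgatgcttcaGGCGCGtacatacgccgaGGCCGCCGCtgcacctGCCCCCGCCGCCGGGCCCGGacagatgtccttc
Cox7b: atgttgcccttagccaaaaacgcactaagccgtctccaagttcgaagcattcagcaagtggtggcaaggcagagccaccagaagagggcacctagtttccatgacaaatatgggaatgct
Uqcrb: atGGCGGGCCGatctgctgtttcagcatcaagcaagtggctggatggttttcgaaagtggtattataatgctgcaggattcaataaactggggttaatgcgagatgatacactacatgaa

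Over whole coding sequences the 11 held 7.1 to 26.8 such runs per kilobase (median 12.9) and the 25 even members 0.0 to 18.8 (median 3.2). The ranges overlapped: Uqcr11 (17.9), Uqcr10 (15.6) and Atp5k (18.8) were even members with many runs per kilobase, and Atp5g3 was a varying member with 7.1.

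Forms of subunits that are restricted to certain tissues were absent or low. Cox4i2 (the lung and low-oxygen form), Cox6a2 and Cox8b (heart and muscle forms), Cox7b2 and Cox8c had 0 counts in all 13 libraries, which allows up to 0.0493 to 0.133 CPM in 1 library, while their common forms Cox4i1, Cox6a1, Cox8a and Cox7b were at 3.78 CPM or more in every library. Cox6b2, the testis form of Cox6b1, was at 0.854 to 1.74 CPM and was not called in any comparison. Cox7a1, the heart and muscle form of subunit 7A, had 0, 1, 17 and 4 counts in cells alone, 29, 63, 28 and 24 with control macrophages and 68, 57, 38, 57 and 47 with STZ macrophages. In CPM this was 0.135 ± 0.17 (n = 4), 0.922 ± 0.114 (n = 4) and 1.39 ± 0.31 (n = 5). The groups did not overlap, and Cox7a1 was called higher in both comparisons with cells alone (log2 fold changes 2.70 and 3.34) and not between co-cultures (0.64). Its call with control macrophages was lost in day 1 libraries alone and when only the libraries of those groups were fitted.

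Subunit c, which forms the proton-carrying ring of ATP synthase, is made from 3 genes that encode the same mature protein. Atp5g3 gave 94.8% ± 3.71 of their summed level per kilobase in cells alone (n = 4), 94.9% ± 4.83 with control macrophages (n = 4) and 97.5% ± 0.962 with STZ macrophages (n = 5). Atp5g2 gave 4.84%, 4.62% and 2.26%, and Atp5g1 0.352%, 0.525% and 0.273%, and the ranges of each share overlapped between all groups. The annotated transcripts used have 4715 bases for Atp5g1, 731 for Atp5g2 and 723 for Atp5g3, so the low share of Atp5g1 depends on that choice. In CPM, not divided by length, Atp5g1, Atp5g2 and Atp5g3 averaged 1.49, 3.41 and 88.2 in cells alone. Against cells alone, all 3 rose with control macrophages: Atp5g1 by 1.89 (SE 0.39, edgeR adjusted p = 0.00191), Atp5g3 by 1.64 (SE 0.41, adjusted p = 0.00615) and Atp5g2 by 1.09 (SE 0.30, adjusted p = 0.00995) on the log2 scale. With STZ macrophages Atp5g3 rose by 2.44 (SE 0.48, edgeR adjusted p = 0.00128) and Atp5g1 by 1.29 (SE 0.44, adjusted p = 0.0301), and Atp5g2 missed the threshold at 0.72 (adjusted p = 0.0865). Without the day term Atp5g2 was called higher with STZ macrophages, at 1.08 (edgeR adjusted p = 0.0125). Atp5g3 was at 122, 123, 74.3 and 33.7 CPM in cells alone and at 310.4, 417, 85.6 and 213 CPM with control macrophages, with 1 co-culture inside the range of cells alone.

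The mitochondrially encoded partners of these complexes did not follow the nuclear subunits. Of 6 transcripts (among them mt-Cytb of complex III, mt-Co1 of complex IV and mt-Atp8 of ATP synthase) 0 were called by edgeR in each of the 3 comparisons, with medians of -0.22, -0.07 and 0.02. mt-Co1, the catalytic subunit of the oxidase, was at 3002 CPM on average in cells alone, 2535 with control and 2638 with STZ macrophages (log2 fold change -0.39, SE 0.30, edgeR adjusted p = 0.309 with control macrophages).

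Other nuclear genes of the pathway are read against the 23.1% of all genes called higher with control and 20.8% with STZ macrophages. With control macrophages 27 of 36 tested subunits of complex I rose and 0 fell (median 1.06), with the smallest p for Ndufs8 (1.64), Ndufc2 (1.96) and Ndufa12 (1.70), and 3 of 4 subunits of complex II rose (Sdhb, Sdhc and Sdhd). With STZ macrophages the counts were 19 of 36 and 2 of 4. Of 8 carriers of ATP, phosphate and the outer membrane 5 rose with control and 6 with STZ macrophages, among them the pore Vdac1 (2.02 and 2.27) and the ATP/ADP exchanger Slc25a5 (1.78 and 1.40). Atpif1, the inhibitor that stops ATP synthase from running backwards, rose from 27.7 CPM on average in cells alone to 164 with control macrophages (2.55 on the log2 scale, SE 0.21, edgeR adjusted p = 1.5e-06). With STZ macrophages it averaged 148 CPM (2.38, SE 0.22, edgeR adjusted p = 4.3e-06). Between the co-cultures 0 genes of these lists were called by edgeR.

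Assembly factors and regulators are read against the same shares and the 22.0% and 22.3% of all genes called lower. Of 6 assembly factors of complex III 1 rose and 2 fell with control macrophages and 1 rose and 4 fell with STZ macrophages. Uqcc2 rose (1.60 with control and 1.30 with STZ macrophages), while Ttc19, a late assembly factor, fell (-1.55 and -1.83), as did Uqcc3 (-0.52 and -0.93). Of 24 tested factors of complex IV, 8 rose and 1 fell with control macrophages and 4 rose and 2 fell with STZ macrophages, of which the 4 are a share near or under that of all genes. Risers in both were Cmc2 (2.74 and 1.98), Cmc1 (1.71 and 1.31) and Cox17 (0.96 and 1.28), a copper chaperone of the oxidase. Of 4 factors of ATP synthase, 0 were called with control macrophages and Fmc1 (1.80) and Atpaf2 (1.33) rose with STZ macrophages. Of 12 tested regulators of respiratory genes 1 rose and 3 fell in each comparison with cells alone, the 3 being a share near that of all genes: Ppargc1b, a coactivator, averaged 27.9, 6.01 and 6.08 CPM in the 3 groups, Yy1 41.3, 18.7 and 15.8 CPM and the nuclear receptor Esrra 5.87, 1.55 and 1.61 CPM.

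Promoters of the members were searched because most members moved together. RefSeq promoter windows (GRCm38.p6, 250 bases before to 50 after each start) were matched for 32 of the 41 tested members, in 35 windows, and each motif was searched on both strands. The palindrome bound by NRF1, searched as a motif of 10 letters and shown in capitals in the promoters printed next, was in 22.9% of member windows and 4.6% of all 32851, and CCGGAAG, bound by ETS factors such as GABP, in 31.4% and 8.9%. AAGATGGCG, bound by YY1, was in 5.7% and 1.4% (Atp5j and Atp5j2), and CACGTG, the E box, in 11.4% and 7.2%. None of the 4 motifs contains another, and a match is a description of the letters. NRF1 letters were found at 8 members, Atp5c1, Atp5g2, Atp5g3, Atp5h, Atp5k, Atp5o, Cox6a1 and Uqcrc1, of which 5 rose with control macrophages. This is near the 65.9% of all 41 tested members that rose, and a link between letters and rise was not tested.

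Cox6a1, Atp5h and Atp5k held both NRF1 and ETS letters in the window, and the 250 bases before their starts are shown for that reason, all from the minus strand: Cox6a1 at chr5:115348959-115349208, Atp5h at chr11:115419920-115420169 and Atp5k at chr5:108434400-108434649. Capitals mark NRF1 letters and ETS letters, the latter here as the reverse complement, and the ETS letters of Atp5k lie after the start. The 3 genes differed in the data: Atp5k rose in both comparisons with cells alone, Cox6a1 belonged to the varying group and Atp5h missed the threshold in both.
Cox6a1: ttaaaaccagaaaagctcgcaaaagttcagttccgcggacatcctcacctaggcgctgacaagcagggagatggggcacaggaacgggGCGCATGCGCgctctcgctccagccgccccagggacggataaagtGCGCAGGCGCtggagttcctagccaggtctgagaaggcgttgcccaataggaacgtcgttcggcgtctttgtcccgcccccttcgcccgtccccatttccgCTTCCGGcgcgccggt
Atp5h: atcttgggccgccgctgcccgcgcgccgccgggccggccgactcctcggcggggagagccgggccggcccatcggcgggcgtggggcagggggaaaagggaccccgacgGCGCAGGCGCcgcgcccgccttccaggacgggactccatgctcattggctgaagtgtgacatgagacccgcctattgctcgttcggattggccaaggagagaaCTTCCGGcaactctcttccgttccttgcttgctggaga
Atp5k: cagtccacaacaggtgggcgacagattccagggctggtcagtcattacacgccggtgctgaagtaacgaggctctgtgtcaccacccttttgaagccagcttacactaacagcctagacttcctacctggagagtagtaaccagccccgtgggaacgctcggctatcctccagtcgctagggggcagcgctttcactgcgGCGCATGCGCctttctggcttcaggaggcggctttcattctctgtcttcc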

How the data were processed

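RNA of sorted CD4+ T cells was sequenced in 13 libraries of 3 groups, from 10 ng of RNA with a kit that does not mark strand, per the labels' protocols. The raw table holds estimated counts per gene as deposited by the authors, of which 11% are not whole, and these were rounded. Reads were aligned to GRCm38 per the labels' protocols, and the submitters' processing notes name DESeq2. The sources used here do not name the aligner, the counter or the annotation release. A second deposited table gives the authors' adjusted log2 values for 12236 genes and was used only with limma, as an alternative.

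Counts were fitted with edgeR 4.0.16 (R 4.3.3; quasi-likelihood test, robust, TMM scaling, filterByExpr by group) with group and batch day as terms over all 13 libraries, which left 15781 genes. P-values were adjusted by Benjamini-Hochberg over all of them and called below 0.05, and tests are two-sided. The standard error is the log2 fold change divided by the root of F. CPM uses library sizes after the filter and TMM factors. Total counts of 17312119 to 61267763 a library set the precision. Simulated counts were made for the comparison of control macrophages with cells alone (15781 genes). In them 9 of 100 genes changed 2-fold and 58 of 100 changed 4-fold were called, with 0.0128% of unchanged genes. In the data 45.0% of genes were called in that comparison, far more than were changed in the simulation. The adjustment of p is stricter where few genes change, so these shares do not give the rate of missed calls in the data. A missed call is still no evidence of an unchanged gene.

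Members and gene lists were chosen with earlier results of these data known. Members were chosen by rule for statistics, and some of them are printed by fold change alone. Against cells alone they were the 4 members of each complex at the ends of the fold changes (2 at each end), among those at a mean of 3 log2 CPM or more. Cycs, Cyc1, Cox4i1, Cox7a2l and the 3 subunit c genes were added. Between co-cultures they were the 8 members with the smallest p and Cycs. From each other list up to 3 genes with the smallest p in control macrophages against cells alone were chosen. Other members appear by level or fold, and tissue-restricted forms by level. Alternatives were RLE scaling, library totals, no filter, no day term, day 1 only, a replicate block and only the groups compared. Others were corrections for GC content and length of the whole transcript, DESeq2 1.42.0, limma 3.58.1 on the second table and leaving out each library. A further 4 settings were added after seeing the data. Replicate numbers were checked for pairing by correlating deviations from group means. Between control-macrophage libraries and cells alone the 4 same-numbered pairs had r of 0.161 to 0.352, and 3 of 4 correlated best with their own number. Control-macrophage replicate 3 had r of 0.433 with replicate 4 of cells alone and 0.282 with replicate 3. Control-macrophage replicate 1 had 0.184 with both replicates 1 and 2 of cells alone. The numbers may mark pairs, from the data and not from the labels. The values reported come from the fit without the block, and the calls that the block changed are listed with the dependence on processing. Gene positions and coding sequences come from GENCODE vM21 and promoters from RefSeq. Figures were drawn with matplotlib 3.10.9.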

Additional observations from a re-analysis of the deposited data

Results flagged for a closer look

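In 8 of 84 groups of 4 or 5 libraries, 1 library stood apart from the others by Dixon's criterion. The members were those chosen by rule for statistics, in 3 groups each. Chance meets the criterion in about 1 in 20 groups. Replicate 2 of cells alone stood apart for Cox5a at 67.8 CPM (others 1.97 to 4.85), Cyc1 at 86.8 CPM (2.82 to 8.66) and Uqcrfs1 at 41.4 CPM (3.8 to 5.53). STZ-macrophage replicate 1 did so for Cyc1 at 99.7 CPM (6.61 to 33.2) and Uqcrfs1 at 62.5 CPM (5.95 to 10.3). Control-macrophage replicate 2 did so for Atp5b at 418 CPM (86.6 to 136) and Atp5d at 35.7 CPM (8.94 to 13.4). All of these 7 are of the varying members. The eighth was Uqcrc2 in control-macrophage replicate 3, at 690.1 CPM (others 316 to 379), the library of batch day 2 in its group.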

How the results depend on the processing

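With control macrophages against cells alone, the count of members called higher (27) ran from 24 to 34 over all settings and from 27 to 29 on leaving out 1 library. The count called lower (0) was 1 with library totals, 1 with the GC correction, 2 with the length correction, 7 in the authors' table, 1 without cells-alone libraries 1 and 2 and 1 with the axis of the cells-alone libraries in the fit, and 0 to 1 on leaving out 1 library. With STZ macrophages against cells alone, the count called higher (25) was 8 without STZ-macrophage libraries 1 and 5, and 19 to 34 on leaving out 1 library. The count called lower (1) was 0 with day 1 only and 0 without STZ-macrophage libraries 1 and 5, and 1 to 1 on leaving out 1 library. Between the co-cultures, the higher count (0) was 1 with only those groups fitted and 2 without cells-alone libraries 1 and 2, and the lower count (0) was 4 under both; leaving out 1 library gave 0 to 0 for each. The cause of these shifts was not tested.

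With the replicate number as a block, 29 members were higher with control macrophages, Atp5h and Atp5l being gained. Same-numbered STZ-macrophage libraries were not paired with cells alone (r -0.415 to 0.331, 1 of 4 correlating best with its own number) or with control-macrophage libraries (-0.202 to 0.474, 1 of 4). There the block left 18 higher and 0 lower against cells alone, 10 higher and 0 lower with the GC correction too, and 0 called between co-cultures. STZ-macrophage replicate 5 has no same-numbered library in the other groups, so under the block it carries no weight in these comparisons. Leaving out that library alone lost the calls of Atp5g1, Atp5mpl, Uqcrb, Atp5b, Cox8a and Cox5b against cells alone. Against cells alone the block by itself removed the calls of Cox7c, Cox5b and Cox4i1. It also removed those of Uqcrq (3.15, edgeR adjusted p = 0.0534), Cox8a (1.91, 0.109), Atp5b (1.70, 0.216) and Atp5g1 (1.29, 0.174). Cox7a2l lost its call as lower (-0.96, 0.0627). With block and GC correction Atp5d was 0.25 with control macrophages.

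Signs turned as follows, as log2 fold changes. With control macrophages against cells alone, Atp5b (0.37) was -0.03 with library totals, -0.32 without the day term, -0.02 with day 1 only, -0.33 with only those groups, -2.20 in the authors' table and -0.13 without STZ-macrophage libraries 1 and 5, and -0.04 to 1.26 on leaving out 1 library. Atp5d (-0.37) was 0.43 with the GC correction, 1.77 without cells-alone libraries 1 and 2 and 0.77 with the axis (-0.97 to 1.08). Cox5a (0.14) was -0.35 with library totals, -0.72 without the day term, -0.77 with day 1 only, -0.38 with the length correction, -0.74 with only those groups, -0.88 without STZ-macrophage libraries 1 and 5 and -0.35 without 2 and 4 (-0.79 to 2.71). Cyc1 (-1.18) was 0.48 in the authors' table, 0.72 without cells-alone libraries 1 and 2 and 0.15 with the axis (-1.96 to 1.04). Uqcrfs1 (-0.57) was 1.07 and 0.38 under the last 2 (-1.10 to 0.98). In the authors' table Atp5g3 was -0.37 and Uqcrq -1.98.

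With STZ macrophages against cells alone, the authors' table gave -0.31 for Atp5b, -0.43 for Cox6a1, -0.55 for Cox8a and -1.45 for Uqcrc1. Atp5h (-0.21) was 0.06 without the filter, 0.10 without the day term, 0.11 with day 1 only, 0.06 with only those groups, 0.30 in the authors' table, 0.07 without STZ-macrophage libraries 2 and 4 and 0.12 with the axis (-0.34 to 0.14). Atp5l (0.05) was -0.06 with library totals and -0.27 with the length correction (-0.09 to 0.32). Cyc1 (0.63) was -2.35 without STZ-macrophage libraries 1 and 5 (-0.52 to 3.05), and Uqcrh (0.19) was -0.11 with the length correction and -0.11 without those libraries. Between co-cultures, Cycs (-0.19) was 0.02 with library totals, 0.01 without the filter, 0.04 without the day term, 0.18 with day 1 only, 0.12 with the GC correction, 0.00 with only those groups, 0.00 without cells-alone libraries 1 and 2, 0.09 without STZ-macrophage libraries 2 and 4 and 0.12 with the axis (-0.28 to 0.18). None of the 11 varying members was under 1.97 CPM in any library, above the 0.0493 to 0.133 CPM of 3 counts.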
